A study of Oryza sativa Japonica Group with 4 samples.

Results

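A group of 4 rice genes for expansins, the secreted proteins that let cell walls yield and cells enlarge, is described here in the lamina joint, the hinge of tissue that sets how far a leaf blade leans from the stem. The genes are the alpha-expansin EXPA2, the beta-expansins EXPB6 and EXPB11, and the expansin-like gene EXLA2. They were chosen by name, with their signals in both genotypes already known. Their own differences are therefore given as descriptions, without a test. The 4 genes are read by 5 probe sets of the 57381 on the array, each paired with exactly 1 gene, and EXLA2 has 2 of them. They are 4 of the 17905 genes that the array reads in this way. In all, 29 of the 49 expansin genes named in the RefSeq table have a probe set paired with 1 gene, so 25 other expansins could be set beside them.

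Expansins loosen the wall without cutting its polymers, in acidic walls, by weakening the contacts between cellulose and the polysaccharides that coat it. Alpha-expansins are best known for acting where xyloglucan meets cellulose. Beta-expansins are a large group in grasses, whose walls are rich in arabinoxylan, and include the group 1 allergens of grass pollen. Expansin-like proteins share the 2-domain build, but what they do in the wall is less well known.

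RNA of lamina joints from japonica rice at the tillering stage was read on Affymetrix Rice Genome arrays. There are 2 groups with 2 arrays each, the wild type Zhonghua11 (ZH11) and the mutant ila1, which has a wider leaf angle. ILA1 is known as a kinase related to Raf, of the group that stands at the top of MAP kinase cascades. The sources used here do not give the type of lesion in ila1, the number of plants pooled for a sample or the plants' age in days. No treatment is named for either group. Neither gene table pairs a probe set with ILA1, so the mutated gene's own level is not reported. Since the arrays are called biological replicates without naming separate plants, p-values measure only the spread between these samples.

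Median signal over all probe sets that are not Affymetrix controls lay between 53.6 and 57.9 on the 4 arrays, and precision is limited by there being 2 arrays a group. Mean signal was 345 and 346 in ZH11 and 302 and 305 in ila1. The Affymetrix hybridization controls also read higher in ZH11, at relative factors of 1.08 and 1.09 against 0.89 and 0.95. Of the genes fixed as lamina joint markers, LG1, a factor needed for the ligule and the joint itself, read 312 and 340 in ZH11 and 318 and 234 in ila1. BU1 read 188 and 208 in ZH11 and 140 and 184 in ila1, and IBH1 137 and 136 against 124 and 74.4. At these probe sets BU1 and IBH1 were lower on both ila1 arrays, as were 35.6% of all tested genes. Other IBH1 probe sets, not tested, overlapped between the groups. One read 30.3 and 28.9 in ZH11 against 31.8 and 23.5 in ila1, and the other 2.83 and 5.60 against 4.87 and 2.87. The median log2 difference of the 3 tested joint markers was -0.28, and 0 were called. The photosynthesis markers split the ila1 arrays: their summed signal over 4 genes was 14615 on ila1 replicate 1 and 24874 on ila1 replicate 2, against 19987 and 21371 in ZH11. Among them, RBCS1 read below 10 on each array. The ila1 arrays also differed more from each other than the ZH11 arrays did, with 4.35% of 15633 tested genes over 2-fold apart against 0.345%. In RNA of a whole tissue, fewer cells of a type and less RNA per cell cannot be told apart.

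The beta-expansin EXPB11 showed the widest difference of the 4 genes. Its signal was 236 and 205 in ZH11 and 1749.9 and 2419 in ila1. Both ila1 arrays lay far above both ZH11 arrays, by 7.42-fold at the nearest pair and 11.8-fold at the widest. On the log2 scale, after adding 16 to each signal, the difference was 3.14 ± 0.19 (SE of the fit across all probe sets, n = 2 arrays each), and 12 of 34355 tested probe sets showed a larger rise.

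The other beta-expansin, EXPB6, had a strong signal in both genotypes. Its signal was 2099 and 2173 in ZH11 and 5505 and 7239 in ila1. The groups did not overlap, and the ratio of an ila1 to a ZH11 array ran from 2.53 to 3.45. The log2 difference of EXPB6 was 1.56 ± 0.15 (SE, n = 2 each), which 137 probe sets exceeded. EXPB6 and EXPB11 belong to the beta-expansins known from elongating internodes of rice, as do EXPB3 and EXPB4.

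The alpha-expansin EXPA2 read 735 and 743 in ZH11 and 2654 and 4009 in ila1. The ZH11 arrays were nearly equal, and the ila1 arrays were both higher and further from each other. EXPA2 was 3.57- to 5.46-fold higher across the 4 pairs of arrays, with a log2 difference of 2.12 ± 0.21 (SE, n = 2 each) that 42 probe sets exceeded.

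The expansin-like gene EXLA2 went the opposite way on both of its probe sets. On the first it read 957 and 962 in ZH11 against 142.5 and 145 in ila1, and on the second, marked by Affymetrix as open to cross-hybridisation, 1022 and 1054 against 165 and 183. Both probe sets were built from the same transcript record, so they are not independent readings. The ZH11 signal was 6.61 to 6.75 times that of ila1 on the first and 5.59 to 6.40 times on the second. The log2 differences were -2.61 ± 0.12 and -2.48 ± 0.12 (SE, n = 2 each), and 206 and 250 probe sets showed larger falls.

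**Figure D1:**
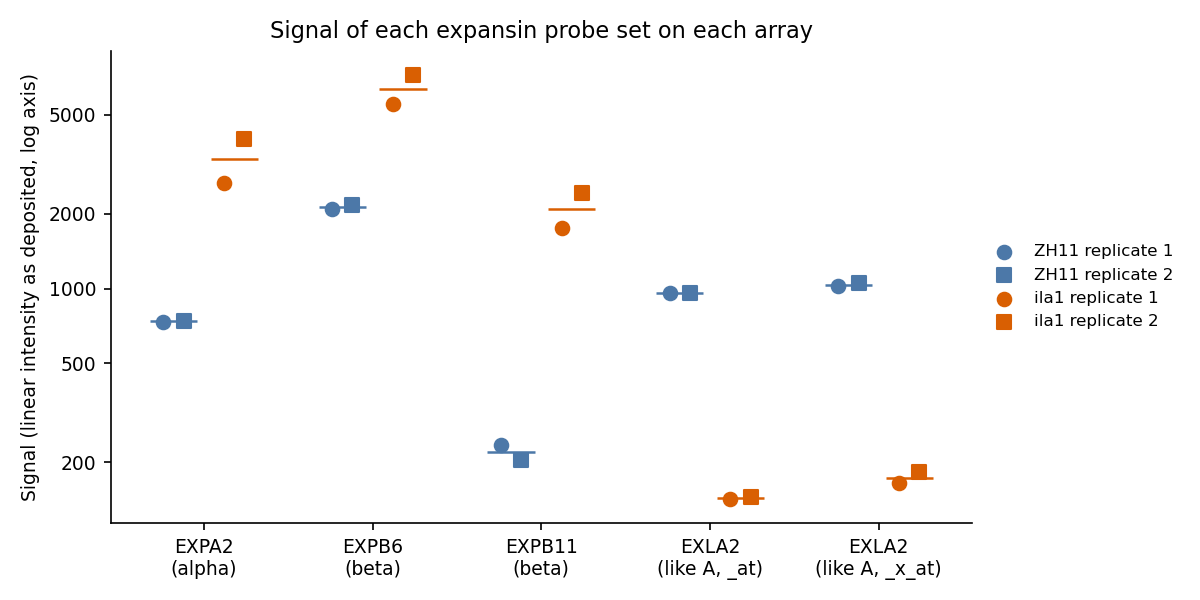
Signal of the 5 probe sets of EXPA2, EXPB6, EXPB11 and EXLA2 on each of the 4 arrays, on a log axis in the deposited linear intensity, with a horizontal line at each group's mean of 2 arrays. The ila1 arrays lie above the ZH11 arrays for EXPA2, EXPB6 and EXPB11 and below them for EXLA2. Heights of different probe sets are not comparable.

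In all 4 genes the groups did not overlap and the genotypes were at least 2-fold apart in every pair of arrays, 3 higher and 1 lower in ila1. Of all 15633 tested genes, 32.6% did not overlap as higher and 35.6% as lower, and 1.33% were higher and 6.67% lower by at least 2-fold in every pair. Nothing is read from the members' count, since this contrast chose them. The genes also differed from one another in how well the ila1 arrays matched. ila1 replicate 2 was above ila1 replicate 1 by 1.51-fold for EXPA2, 1.38-fold for EXPB11 and 1.32-fold for EXPB6. EXLA2 read 1.02 and 1.11 times as high on replicate 2. The 3 genes that were higher in ila1 were thus also the ones with the larger gap between its arrays. Between the ZH11 arrays the log2 gap was 0.02 for EXPA2, 0.05 for EXPB6 and -0.19 for EXPB11.

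The subfamilies were contrasted through the change of each gene's signal and not its level, since probe sets of different genes bind with different strength. Set against EXPB11, the log2 difference of EXPA2 lay at -1.02 and that of EXPB6 at -1.58. EXPB6 less EXPA2 came to -0.56. The widest contrast was that of EXLA2 less EXPB11, which came to -5.61 on the second EXLA2 probe set and -5.75 on the first. Among these 4 genes, the alpha-expansin therefore lay between the 2 beta-expansins, and the expansin-like gene lay apart from these 3. The genes were chosen with their differences known, so nothing about the subfamilies is read from this order. The other tested genes had median log2 differences of -0.05 for alpha-expansins, 0.02 for beta-expansins and 0.07 for expansin-like A genes.

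Of the 25 other expansins with a probe set, 15 passed the filter on low signal and were tested, by 1 probe set each. EXPB3 rose, EXPA7 and EXPB17 fell, and 12 did not pass (limma, Benjamini-Hochberg adjusted p threshold 0.05 over all probe sets). Over all tested genes, 5.67% were called higher and 12.6% lower, and over all tested probe sets 4.71% and 10.4%. These shares depend on the scaling: on the scale of the hybridization controls, 3626 probe sets were higher and 2344 lower, from 1619 and 3572. The median log2 difference of the 15 was -0.05, against -0.02 over all tested genes, and their range was -0.86 to 0.99. The 10 expansins not tested read between 5.68 and 46.4 on every array, among them the pollen-type beta-expansins EXPB9 and EXPB10.

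**Figure D2:**
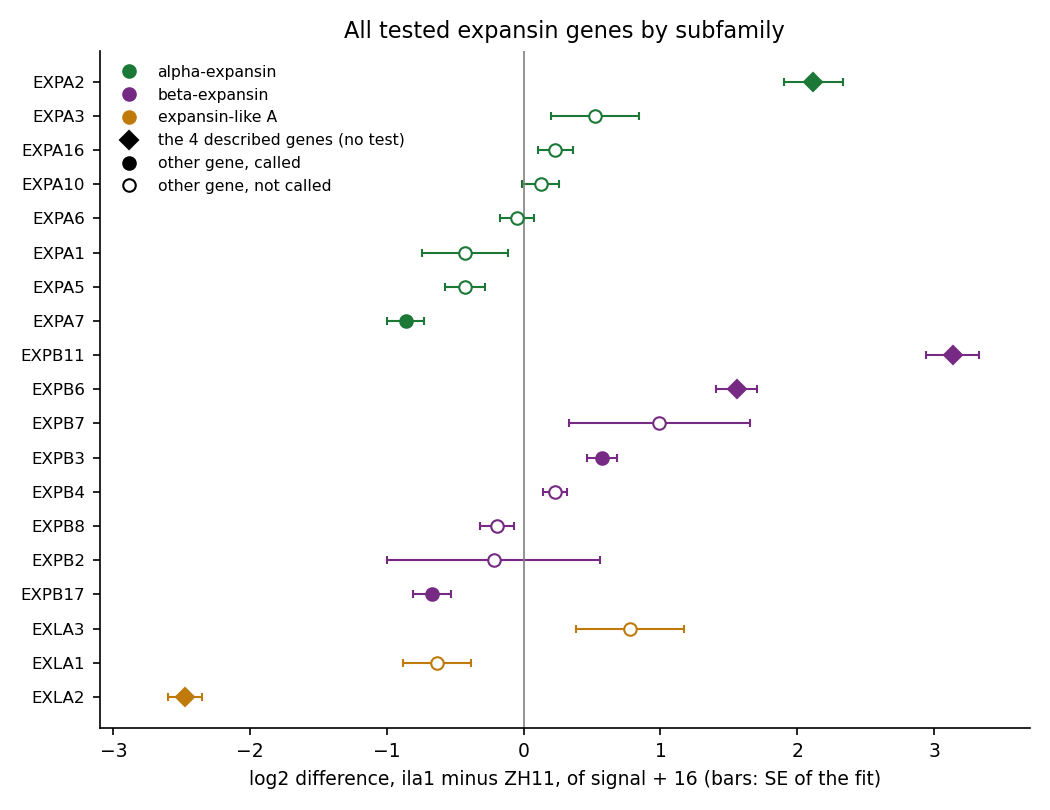
log2 difference between ila1 and ZH11 of the 19 tested expansin genes, grouped by subfamily, at the probe set with the highest mean signal, with the SE of the fit as bars (n = 2 arrays each). EXPB11 at 3.14 and EXLA2 at -2.48 lie at the ends, filled circles mark the called genes EXPB3, EXPA7 and EXPB17, and open circles those not called.

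Among the other alpha-expansins, 1 of 7 tested genes fell and 0 rose in limma, against 12.6% and 5.67% of all tested genes. At an unadjusted p under 0.05 in limma, 2 were lower and 0 higher. Without a trend in the prior variance the calls were also 1 and 0. The gene that fell was EXPA7, whose main probe set read 174 and 148 in ZH11 and 85.5 and 76.8 in ila1 (log2 difference -0.86 ± 0.14, limma adjusted p = 0.0203). Both ila1 arrays were below both ZH11 arrays. A second probe set of EXPA7 also passed (log2 difference -0.47 ± 0.10, limma adjusted p = 0.0463). Among the alternatives that kept every array, this call held only with pseudocounts of 1 and 64. It ended under the others, among them each other scaling, no filter on low signal and no trend. The last EXPA7 probe set, not tested, read 29.8 to 35.4.

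EXPA1 differed between the ila1 arrays. It read 3628 and 3818 in ZH11, 1977 on ila1 replicate 1 and 3850 on ila1 replicate 2. The groups overlapped, and the log2 difference of -0.43 ± 0.32 did not pass. EXPA10 stayed between 543 and 647 and EXPA6 between 242 and 268 on the 4 arrays. The median log2 difference of the 7 genes was -0.05, and the highest among them was 0.52, in EXPA3, against 2.12 in EXPA2.

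The beta-expansins EXPB6, EXPB2, EXPB3 and EXPB4 lie next to each other in this order in the RefSeq annotation, with no other annotated gene between them. EXPB3 rose, from 7075 and 6898 in ZH11 to 9469 and 11414 in ila1 (log2 difference 0.57 ± 0.11, limma adjusted p = 0.0314). Both ila1 arrays were above both ZH11 arrays. EXPB4 read 3545 and 3317 against 4079 and 3964, a log2 difference of 0.23 ± 0.09 that did not pass (limma adjusted p = 0.138). Under quantile normalization, and when the hybridization controls set the scale, it passed, at 0.45 and 0.46. Along the row, the 3 genes EXPB6, EXPB3 and EXPB4 thus read higher in ila1 in every pair of arrays, by log2 differences from 1.56 down to 0.23. Of all tested genes, 32.6% did so, and EXPB6 was chosen with its difference known, so nothing is read from this count. EXPB4's probe set is of a type that can read several transcripts, and reads shared between these related genes were not separated.

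EXPB2, which sits between EXPB6 and EXPB3, did not follow them. It read 383 and 404 in ZH11 but 136 on ila1 replicate 1 and 795 on ila1 replicate 2, a 5.83-fold gap within the mutant. ZH11 lay between the ila1 arrays, and the log2 difference of -0.22 ± 0.78 did not pass (limma adjusted p = 0.86). It was 0.99 without ila1 replicate 1 and -1.42 without ila1 replicate 2, of opposite sign.

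**Figure D3:**
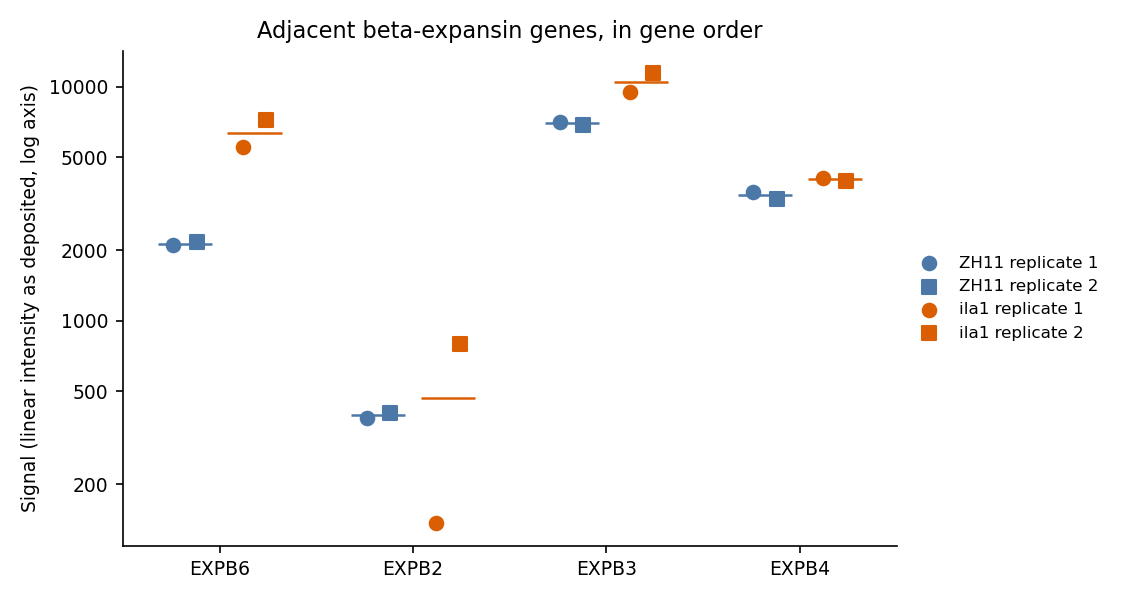
Signal of the 4 adjacent beta-expansin genes in their annotated order on each array, on a log axis in the deposited linear intensity, with lines at the group means of 2 arrays. EXPB6 and EXPB3 lie higher in ila1, while the ila1 arrays of EXPB2 fall at 136 and 795 on either side of ZH11.

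Outside this row, EXPB17 fell from 208 and 232 to 123 and 143 (log2 difference -0.67 ± 0.14, limma adjusted p = 0.0405), and missed the threshold under quantile normalization and when hybridization controls set the scale. Its other probe set, below the filter and not tested, read 24.7 and 32.3 in ZH11 and 29.3 and 26.9 in ila1. EXPB7 read 40.6 and 62.0 in ZH11, 50.2 on ila1 replicate 1 and 248 on ila1 replicate 2, and did not pass. In all, 1 of the 6 other beta-expansins rose and 1 fell, against 5.67% and 12.6% of all tested genes. Their median log2 difference was 0.02, and counts among so few genes cannot be told from those shares. EXPB14, the gene annotated directly beside EXPB11, is paired with no probe set here.

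EXLA2 is one of 4 expansin-like A genes, all of which have a probe set. EXLA1 read 638 and 813 in ZH11 and 370.4 and 568 in ila1, with a log2 difference of -0.63 ± 0.25. EXLA3 read 126 and 125 in ZH11 and 351 and 146 in ila1, with a log2 difference of 0.78 ± 0.40. Neither passed (limma adjusted p = 0.148 and 0.231; of the 2 genes 0 were past an unadjusted p under 0.05, and 0 were called without a trend). Their signs were opposite to each other, and EXLA4 stayed between 12.4 and 38.9 without a test. The one expansin-like B gene of the table has no probe set paired with it.

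The calls of EXPA7, EXPB3 and EXPB17 ended when either ZH11 replicate 1 or ZH11 replicate 2 was left out. In those fits the lone ZH11 array is assumed to vary like the ila1 pair. Without either ila1 array, the spread comes from the closer ZH11 pair, so passing there is not read as a result. EXPB3 also missed the threshold without a trend in the prior variance (limma adjusted p = 0.0534). Scaling moved the median of all tested genes from -0.02 to 0.13 under quantile normalization and to 0.21 on the scale of the hybridization controls, and the log2 differences of the 4 described genes kept their sign under both.

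Across the family, 3 of the 19 tested expansin genes (EXPB2, EXPB7 and EXLA3, of which the first 2 were higher on replicate 2) had ila1 arrays over 2-fold apart after adding 16, and 0 had ZH11 arrays so far apart. Rubisco activase (rca), a photosynthesis marker, was split in the same way as EXPB2, with 1186 on ila1 replicate 1 and 5058 on ila1 replicate 2 against 2307 and 2950 in ZH11. CAB2R, a chlorophyll-binding protein of the light harvesting complex, read 4562 and 9277 in ila1 against 9498 and 10034. Its other probe set, of the type that can read several transcripts, read 1527 and 6704 in ila1 against 7161 and 7288. The Rubisco small subunit gene RBCS read 8860 and 10531 against 8173 and 8377. None of the 3 tested photosynthesis markers passed (limma, and 0 at an unadjusted p under 0.05), and the part of these marker values in the expansin values was not tested. Without ila1 replicate 1 and without ila1 replicate 2, the log2 difference was 3.37 and 2.90 for EXPB11 and 2.41 and 1.82 for EXPA2. It was 1.75 and 1.36 for EXPB6, and -2.41 and -2.54 for EXLA2 on its second probe set. These genes were chosen with their differences on these arrays known, so nothing is read from the size of these values.

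**Figure D4:**
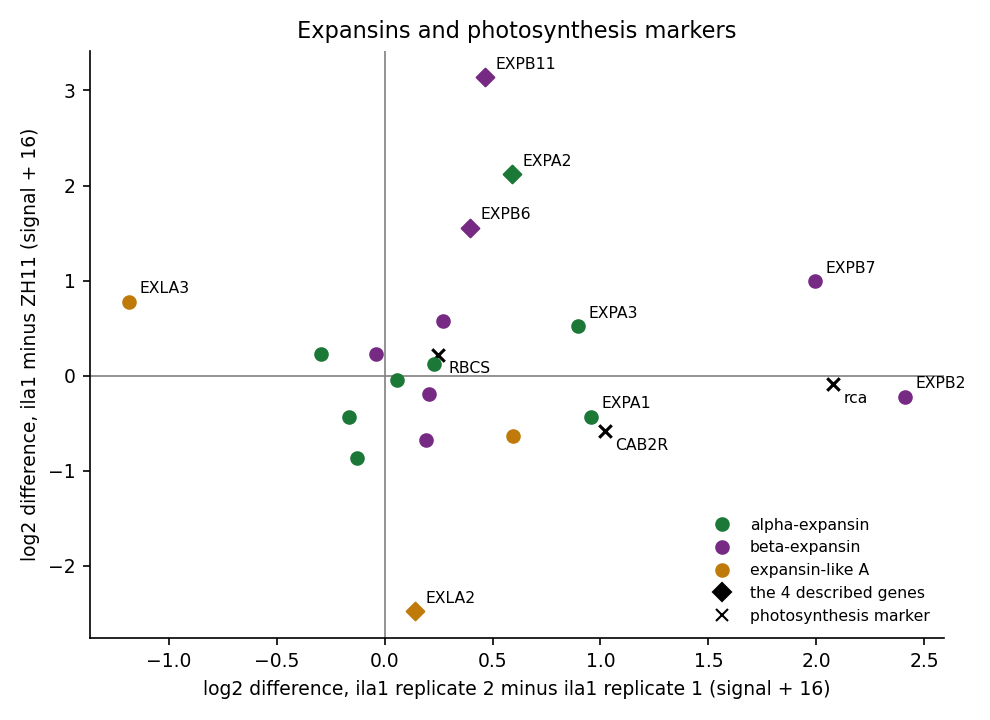
Gap between the ila1 arrays (replicate 2 minus replicate 1, log2 of signal plus 16) against the log2 difference between the genotypes, for the 19 tested expansin genes and 3 photosynthesis markers. EXPB2, EXPB7 and rca lie far to the right with genotype differences of -0.22, 0.99 and -0.09. The 4 described genes, chosen with their genotype differences known, lie far from 0 on the vertical axis with gaps from 0.14 to 0.59.

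Among other genes for loosening or remodelling the wall that were matched by symbol or synonym, those that passed the test were all lower in ila1. The match was partial: 6 of 13 endo-1,4-beta-glucanase genes with a probe set were tested, and only 1 xyloglucan endotransglucosylase/hydrolase gene was matched. The counts cover these lists and not wall genes at large. The 10 tested genes were for endo-1,4-beta-glucanases, a xyloglucan endotransglucosylase/hydrolase, and pectin enzymes or inhibitors of them, called wall enzymes here for short. Of these, 5 fell and 0 rose in limma, against 12.6% and 5.67% of all tested genes. At an unadjusted p under 0.05 in limma, 6 were lower and 0 higher, and without a trend 5 and 0 were called. The median log2 difference of the 10 was -1.04. PAE1, a pectin acetylesterase (log2 difference 0.19 ± 0.10), was called higher under quantile normalization and when hybridization controls set the scale. All 5 calls ended when either ZH11 replicate 1 or ZH11 replicate 2 was left out.

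The endo-1,4-beta-glucanases, which cut glucan chains of the wall, gave 3 of the 5. GLU11 read 1459 and 1510.1 in ZH11 and 324 and 307 in ila1 (log2 difference -2.18 ± 0.11, limma adjusted p = 0.00238). GLU10 read 614 and 620.3 against 123 and 207 (-1.85 ± 0.25, limma adjusted p = 0.0141). GLU1, known in rice for a dwarf mutant with short internodes, read 2245 and 2578 against 897 and 677 (-1.61 ± 0.17, limma adjusted p = 0.00818). In these 3 genes every ila1 array was below every ZH11 array, while GLU2 stayed between 1995 and 2285.

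XTH8, which cuts and rejoins xyloglucan chains, fell from 4183 and 4720.0 to 1478 and 889 (log2 difference -1.94 ± 0.25, limma adjusted p = 0.0133). PMEI28, an inhibitor of pectin methylesterase, fell from 3534 and 3627 to 599 and 1065 (-2.14 ± 0.28, limma adjusted p = 0.0129). Neither gene's groups overlapped. The signs of EXPA2, EXPB6 and EXPB11 were opposite to those of the genes of these wall lists that passed, and that of EXLA2 was the same. The expansins were chosen with their signs known, and PMEI28 codes for an inhibitor and not for an enzyme.

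The named genes whose pattern over the 4 arrays came nearest to each expansin were found among 2165 named genes. The measure was the Euclidean distance between log2 profiles, each centred on its own mean. Here a gene was read by whichever of its tested probe sets came nearest, which need not be the one with the highest mean. For EXPA2 the nearest was CYP85A1, an oxidase of a late step in making brassinosteroids, at 0.26, with signals of 82.6 and 65.3 in ZH11 and 314 and 414 in ila1. EXPB6 at 0.58 and the MYB factor MYBAS1 at 0.59 followed. For EXPB6 the nearest were the starch synthase GBSS1 at 0.16, the phytoene synthase PSY2 at 0.18 and the phosphate signalling gene SPX2 at 0.22. The GBSS1 probe set is of the type marked by Affymetrix as open to cross-hybridisation. EXPB11 had no named gene as near: EXPA2 lay at 1.03, CYP85A1 at 1.07 and GLN2, a glutamine synthetase, at 1.33. The GLN2 probe set had low signals of 11.1 and 17.8 in ZH11. For EXLA2 they were the NAC transcription factors NAC010 at 0.06 and NAC068 at 0.18 and the COBRA-like gene BC1L9 at 0.19. NAC010 read 447 and 444 in ZH11 and 63.5 and 68.4 in ila1. With 4 arrays in 2 groups, nearness mostly says that the size of the genotype difference was alike.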

How the data were processed

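The values deposited by the authors are linear intensities, 1 for each of 57381 probe sets on each of 4 arrays. TRIzol extraction and biotin-labelled cRNA are recorded per the labels' protocols. The software and scaling behind them are unknown from the sources used here, so scaling was among the alternatives.

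Leaving aside 123 Affymetrix control probe sets, values were taken as log2 of intensity plus 16, so fold changes of low signals are understated. Probe sets in the lowest 40% by mean log2 value were not tested, which left 34355 (15633 genes, each by its probe set with the highest mean). The comparison of ila1 with ZH11 used limma 3.58.1 under R 4.3.3 (lmFit, eBayes with trend, two-sided, genotype the only term) with Benjamini-Hochberg adjustment at 0.05. The fit was also run on simulated data in which all arrays of a probe set had the same spread. That run therefore cannot say how the fit behaves with the wider gap between the ila1 arrays. Python 3.11.15, pandas 2.3.3 and matplotlib 3.10.9 were used for tables and plots.

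A platform annotation pairs 22436 probe sets with exactly 1 gene. All 17905 genes were found in the RefSeq table of assembly ASM3414082v1, used for names and gene order only. Expansins were matched by symbol or synonym with a leading Os dropped. Named genes are all expansins, up to 5 called genes of each other wall list, and the 3 nearest named genes of each described expansin. Outside that rule, which gives expansins that did not pass as ranges, values on each array of EXPA1, EXPB2, EXPB4, EXPB7, EXLA1 and EXLA3 are given too, cell type markers come from their own lists, and GLU2, PAE1 and the annotated neighbours were named after their values were seen. The pattern for proton pumps matched only OSA15, also named PSAG, a photosystem gene, so no pumps are reported. Cell division markers (0 of 3 tested genes called; 1 higher at an unadjusted p under 0.05 in limma) and the lamina joint markers LG1, BU1 and IBH1 (0 of 3 called, 0 at an unadjusted p under 0.05) gave no call, and LG2 was below the filter. The planned joint list, which also held names such as LC2, ILI1 and BUL1, gave no other gene with a probe set. No sequences are given. Members, lists and alternatives were chosen with earlier results of these data known.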

Additional observations from a re-analysis of the deposited data

How the results depend on the processing

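The log2 differences of the 4 described expansins kept their sign under every alternative run, and 4 arrays leave each size uncertain. EXPB6 read 1.76 under quantile normalization and 1.79 on the scale of the hybridization controls. The first EXLA2 probe set read -2.73 with a pseudocount of 1, -2.30 with 64, -2.48 under quantile normalization, -2.54 under median centring and -2.39 on the controls' scale, and the second read -2.57, -2.21, -2.34, -2.41 and -2.25 in the same order. Quantile normalization gave 2 other expansins higher and 1 lower, 1 wall enzyme higher and 2926 probe sets higher. Scaling to the controls gave 2, 1 and 1 of these, 3626 probe sets higher and 2344 lower, from 1619 and 3572. Without a trend 0 other expansins were higher, and when a gene's probe sets were averaged 1 was lower.

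Leaving out 1 array at a time gave 0 to 4 other expansins higher and 0 to 5 lower, 0 to 1 wall enzymes higher and 0 to 7 lower, and 5 to 6380 probe sets higher and 17 to 8420 lower. EXPB2 took opposite signs, at 0.99 without ila1 replicate 1 and at -1.42 without ila1 replicate 2. The fewest calls came without ZH11 replicate 1, where the spread comes from the ila1 pair. Without either ila1 array it comes from the closer ZH11 pair, so calls are reached more easily. Over these fits EXPB11 ranged from 2.90 to 3.37, EXPA2 from 1.82 to 2.41, EXPB6 from 1.36 to 1.75, and EXLA2 from -2.62 to -2.60 and from -2.54 to -2.41 on its probe sets.

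The replicate numbers of the titles are not said to mark a shared plant, batch or day. Over 34355 probe sets the difference between replicates 1 and 2 correlated at 0.10 between the genotypes. With the replicate number as a block, 1541 probe sets were higher and 3275 lower, and 1 of the other expansins was higher and 2 were lower, while the call of EXPA7's second probe set ended.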

Other observations

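The annotated neighbours of the 4 expansin genes, up to 3 genes away on either side, were looked up after the values were seen and lie outside the rule for named genes. Of 13 tested neighbours that are not expansins, 2 rose and 2 fell (limma, adjusted p threshold 0.05), against 5.67% and 12.6% of all tested genes. Both that rose flank EXPA2. LOC4327617 read 851 and 949 in ZH11 and 2214 and 3446 in ila1 (log2 difference 1.60 ± 0.23, limma adjusted p = 0.0162), and LOC4327569, on the other side, read 66.4 and 57.4 against 194 and 122 (1.13 ± 0.23, limma adjusted p = 0.0375). The next genes outward, LOC4327616 and the ribosomal protein gene RPS26 (LOC4327570), had log2 differences of -0.0013 and -0.02. The gene tables give no name for the other neighbours given here.

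The 2 neighbours that fell were LOC9270011, 2 genes from EXLA2, from 1277 and 1465 to 706 and 569 (-1.09 ± 0.16, limma adjusted p = 0.0164), and LOC4349343, 3 genes from EXPB6, from 3373 and 3895 to 541.5 and 250.4 (-3.24 ± 0.36, limma adjusted p = 0.00901). LOC4349343 thus went down near a row of beta-expansins where, of EXPB2, EXPB3 and EXPB4, only EXPB3 passed as higher. The tested neighbours of EXPB11, of which none passed, had log2 differences from -0.16 to 0.54. All 4 calls ended when either ZH11 replicate 1 or ZH11 replicate 2 was left out.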
